A study of Anopheles gambiae with 60 samples.

Results

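The probe sets described here are those that were bright in both gonads of the malaria mosquito *Anopheles gambiae* and dim in every other organ that was dissected. They were chosen by the log2 intensities of the dissected tissues in an Affymetrix atlas of adults, where a probe set is a group of short oligonucleotides that reads one transcript or part of one. Probe sets ending in _s_at or _x_at are of cross-reacting kinds, so their values may not come from 1 transcript alone. A probe set was taken when its mean over 4 testis arrays and its mean over 4 ovary arrays were each at least 7, each at least 2.5 above the highest of 6 other organs, and under 3 apart. The 6 were the salivary gland, midgut, Malpighian tubules, head, carcass and male accessory gland. For tissues taken from both sexes the higher of the female and male means was used. The rule found 130 of the 16884 mosquito probe sets (0.77%), which carry 120 different identifier numbers. With the same limits on level and gap, 521 probe sets belonged to the testis alone and 253 to the ovary alone. Because tissues were normalized separately, the number depends on the scale: quantile normalization of all 60 arrays left 60 probe sets, of which 57 were among the 130, and a level of at least 8 left 70.

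The testis and ovary samples, and the samples of the other tissues, came from adult mosquitoes of 1 age and were arrayed with 4 biological replicates in each of 15 groups. According to the methods, siblings were separated by sex as pupae, unmated females took a blood meal, and tissue of females and of age-matched males was dissected 24, 48 and 72 h later, at least 10 mosquitoes at each time, with the RNA of the 3 times pooled. The sample labels give an age of 5 days and mention a blood meal for males too, which differs from the methods. The ovary samples held both ovaries and the common oviduct, and the carcass samples the thorax and abdomen without the organs dissected separately, so each value is an average over many animals, 3 times and all cell types of the organ. In such samples fewer cells of a type and less RNA per cell cannot be told apart.

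Ovary and testis are built around the germ line. In both, germ line stem cells divide, their daughters multiply by mitosis inside cysts of somatic cells, and meiosis follows. In the ovary of a blood-fed mosquito most germ line cells become polyploid nurse cells that fill the oocyte with RNA and protein, and yolk protein made in the fat body is taken up by the oocyte, and a follicular epithelium secretes the eggshell. In the testis the cysts pass through spermatocytes to elongating sperm, and genes for the flagellum are switched on. The male accessory gland is a reproductive organ without germ cells, and so stands with the other tissues in the rule. The names of the genes behind most of these probe sets are not given in the sources used here, so the tissue labels could not be checked against named markers and no member is assigned to any of these processes.

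Since testis, ovary and the dissected tissues chose the members, their levels are given as a description with no test. The median of the member means was 8.59 in the testis and 8.92 in the ovary, against 2.86 (male midgut) to 3.86 (female carcass) in the 11 groups of the other tissues. All 130 were detected in both gonads, where detected means a log2 intensity of at least 5 in at least 3 of 4 arrays. In none of the 6 other tissues were 88 members detected, 16 were detected in 1 of them, 21 in 2 to 5 and 5 in all 6. The distance from the dimmer gonad to the brightest other tissue had a median of 3.67 and a range of 2.51 to 6.91. That brightest other tissue was the carcass for 43 members, the accessory gland for 30, the Malpighian tubules for 22, the salivary gland for 16, the midgut for 10 and the head for 9.

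**Figure D1:**
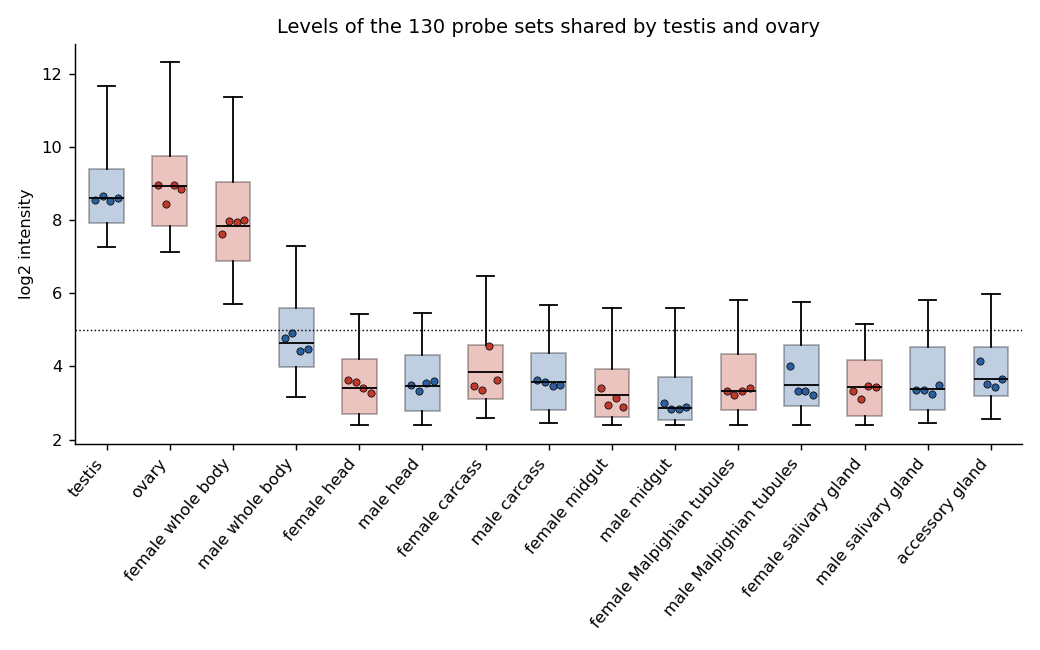
Boxes show the means of the 130 probe sets in each of the 15 groups on the y axis (log2 intensity, with median, quartiles and 5th to 95th percentiles), and points show the median over the 130 on each of the 4 arrays of a group, blue for male and red for female samples. The box medians of testis (8.59), ovary (8.92) and female whole body (7.83) lie above the dotted detection limit of 5 and those of the other 12 groups lie below it.

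Some arrays stood apart. Over the members, the 4 testis arrays correlated with each other at a mean Pearson r of at least 0.966, whereas ovary replicate 4 correlated with the other ovary arrays at 0.683, and 42 members were more than 1 log2 unit higher and 22 more than 1 lower there than the mean of the other 3. The median SD of a member was 0.201 in the testis and 0.607 in the ovary. Without ovary replicate 4 the rule found 116 probe sets, 111 of them among the 130. In 3 arrays of other tissues the members were high together. The member median was 4.57 on female carcass replicate 3, against 3.36 to 3.64 on the other female carcass arrays, and 100 of 130 members were highest there. On that array the 253 ovary-alone probe sets were also raised (median 5.29, others 4.23 to 4.38) and the 521 testis-alone probe sets were not (2.52, others 2.51 to 2.52). Replicate 1 of the male Malpighian tubules (member median 4.02, others 3.23 to 3.32) and replicate 1 of the accessory gland (4.16, others 3.44 to 3.67) had the testis-alone probe sets raised more than the ovary-alone ones: the testis-alone median was 3.20 (others 2.57 to 2.67) and 3.22 (others 2.70 to 2.77), and the ovary-alone median 3.69 (others 3.43 to 3.57) and 3.73 (others 3.41 to 3.68). Without these 3 arrays the rule found 132 probe sets, 129 of them the same, and the part of gonad RNA in their levels was not tested. Female midgut replicate 1, which was kept, showed a smaller rise (member median 3.42, others 2.89 to 3.13), with 72 members highest there. On it the ovary-alone median was 4.07 (others 3.35 to 3.59) and the testis-alone median 2.45 (others 2.45 to 2.47).

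The brightest members in both gonads were 5 probe sets from 2 identifier numbers on arm 2L. The identifiers give the chromosome arm and a number, here Ag.2L.180 and Ag.2L.241, and each number was shared by 3 members. The remaining member with these numbers, Ag.2L.241.1_CDS_a_at, was dimmer, at 8.51 in the testis and 9.55 in the ovary. Ag.2L.180.1_a_at read 12.15, 12.69, 12.43 and 12.61 on the testis arrays, against 14.32, 14.17, 14.32 and 13.99 on the ovary arrays. Ag.2L.241.0_UTR_s_at read 12.49, 12.55, 12.31 and 12.38 in the testis, against 14.53, 14.26, 14.67 and 14.86 in the ovary. All ovary arrays of both lay above all testis arrays. Ag.2L.180.0_CDS_a_at averaged 12.28 ± 0.24 in the testis and 14.19 ± 0.18 in the ovary (SD, n = 4 each), Ag.2L.180.0_CDS_s_at 12.40 ± 0.04 and 13.57 ± 0.28 in the same order, and Ag.2L.241.0_CDS_at 11.95 ± 0.07 and 13.08 ± 0.72. The last of these was also the member farthest above the other tissues, by 6.91, with the salivary gland next at 5.04.

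Among the remaining 10 of the 15 brightest members, 3 were higher in the testis and 7 in the ovary by their means. Ag.UNKN.157.0_CDS_a_at averaged 11.66 ± 0.26 in the testis and 12.72 ± 0.16 in the ovary, and Ag.2L.3183.0_at 11.31 ± 0.16 in the testis and 12.32 ± 0.31 in the ovary. Ag.3R.561.0_CDS_at averaged 10.55 ± 0.28 in the testis and 12.69 ± 0.68 in the ovary. Ag.3R.474.1_CDS_at, from another number with 3 members, averaged 10.35 ± 0.24 in the testis and 11.65 ± 0.67 in the ovary. The ovary was likewise ahead for Ag.2L.322.0_CDS_at (10.17 ± 0.16 in the testis and 11.44 ± 0.37 in the ovary), Ag.2R.850.0_UTR_s_at (9.98 ± 0.26 in the testis and 11.83 ± 0.90 in the ovary) and, by under 1 unit, Ag.3L.218.0_CDS_a_at (10.40 ± 0.15 in the testis and 11.19 ± 0.40 in the ovary). The gonads were close for Ag.2R.3561.0_CDS_at (10.60 ± 0.64 in the testis and 10.19 ± 0.90 in the ovary) and Ag.3R.2622.0_at (10.20 ± 0.27 in the testis and 9.81 ± 0.68 in the ovary). The member brightest in the testis, Ag.3R.646.0_CDS_a_at, joined to gene AGAP009940, read 13.21, 13.20, 13.20 and 12.95 in the testis, against 10.88, 11.19, 11.61 and 10.75 in the ovary. Every testis array of this probe set was above every ovary array, whereas the other probe set of this identifier, Ag.3R.646.0_UTR_a_at, averaged 8.90 in the testis and 12.52 in the ovary.

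Testis and ovary levels of the members spread around equality, within the 3 units that the rule allows. The testis minus ovary difference had a median of -0.18 and a range of -2.79 to 2.93, with 55 members higher in the testis, 75 higher in the ovary and 65 under 1 unit apart. The 4 testis and 4 ovary arrays did not overlap in 68 of the 130 members, against 57.6% of all probe sets detected in both gonads, but the rule bounded this difference and nothing is read from the count. At the testis end, Ag.2L.484.0_UTR_s_at read 12.47, 12.55, 12.49 and 12.48 in the testis, against 9.62, 9.20, 9.75 and 9.71 in the ovary. It was followed by Ag.2R.1114.1_at (11.39 ± 0.26 in the testis, 8.88 ± 0.78 in the ovary), Ag.3R.1154.0_CDS_at (9.70 ± 0.16, 7.21 ± 0.45), Ag.3R.827.0_CDS_at, which is gene AGAP009459 (11.50 ± 0.06, 9.14 ± 0.88), and Ag.2R.2551.0_CDS_at (9.69 ± 0.14, 7.41 ± 0.71). At the ovary end, Ag.2R.1572.0_CDS_at read 6.842, 7.002, 7.188 and 7.394 in the testis, against 9.51, 10.67, 10.73 and 8.67 in the ovary. Next to it were Ag.3R.851.0_CDS_a_at (9.003 ± 0.15 in the testis, 11.67 ± 0.45 in the ovary), Ag.2L.1844.0_CDS_at (7.75 ± 0.16, 10.30 ± 1.54), Ag.3L.133.0_CDS_a_at (8.23 ± 0.11, 10.42 ± 0.57) and Ag.3R.561.0_CDS_at.

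**Figure D2:**
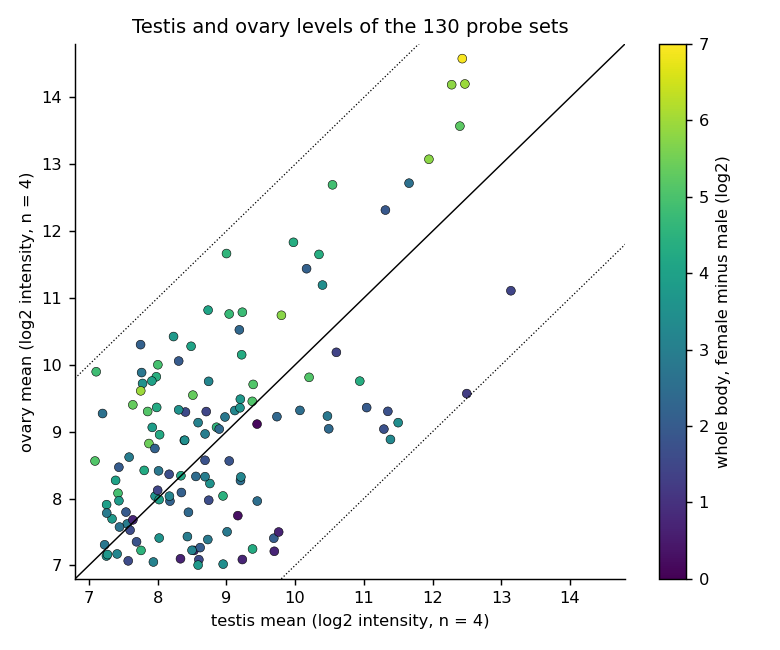
Each point is 1 of the 130 probe sets, with its mean testis level on the x axis and its mean ovary level on the y axis (log2 intensity, 4 arrays each), coloured by the female minus male difference in the whole body. The solid line marks equal levels and the dotted lines the limit of 3, and the whole-body difference has a median of 2.45 in the 55 points below the solid line (higher in the testis), against 3.76 in the 75 above it (higher in the ovary).

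At the edge of the rule, Ag.UNKN.1522.0_CDS_at passed with a testis level of 8.59 and an ovary level of 7.005, and Ag.2L.1774.0_CDS_at with 8.95 in the testis and 7.02 in the ovary. Ag.2L.332.0_CDS_at, Ag.3R.911.0_CDS_at and Ag.2R.850.0_UTR_s_at passed with gaps of 2.51, 2.52 and 2.52. Just outside were Ag.X.179.0_UTR_at (testis 6.99, ovary 8.70, gap 3.08), Ag.UNKN.1101.0_CDS_at (testis 6.99) and Ag.3L.779.0_CDS_at (testis 6.98) by their level, and Ag.3R.428.0_UTR_at and Ag.2R.3702.1_s_at by gaps of 2.49. The members that varied most between ovary arrays did so mainly through replicate 4. Ag.2R.2742.0_CDS_s_at read 9.71, 11.14, 10.69 and 2.95 in the ovary, Ag.2L.1844.0_CDS_at 10.61, 11.29, 11.28 and 8.04, and Ag.3R.2805.0_at 7.89, 8.81, 8.30 and 5.98, with replicate 4 lowest in each. In Ag.2R.1339.0_CDS_at (7.96, 6.69, 7.79 and 9.70) and Ag.2L.1993.0_CDS_at (8.53, 7.62, 7.83 and 10.26) replicate 4 was the highest ovary array. In the testis the largest SDs were 0.64 for Ag.2R.3561.0_CDS_at, 0.63 for Ag.2R.1633.0_CDS_at (gene AGAP004656), 0.62 for Ag.2L.1558.0_CDS_a_at (gene AGAP005031), 0.62 for Ag.2L.241.1_CDS_a_at and 0.51 for Ag.2R.2071.0_CDS_at.

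Several identifier numbers are carried by more than one probe set, which gives a second look at a member that the rule did not choose. Of the 120 identifier numbers, 34 had another probe set on the array, and 36 of these other probe sets were not members. In 32 of the 36, both gonads lay above all 6 other tissues, against 13.2% of all non-member probe sets, and among the 18 detected in both gonads this held for 16, against 31.9% of all non-members so detected. This count takes any margin, from 0.02 in Ag.2R.1357.1_CDS_at, detected in neither gonad, to 3.64 in Ag.2R.377.3_CDS_a_at. Nor does it mean dim elsewhere: Ag.3L.218.0_UTR_a_at, with a margin of 2.05, had a level of 9.80 in the Malpighian tubules. Of the 36, 18 were detected in both gonads, 9 in the testis and not in the ovary, 1 in the ovary and not in the testis, and 8 in neither. For Ag.2R.1114, the member Ag.2R.1114.1_at was 2.503 higher in the testis than in the ovary, while Ag.2R.1114.0_CDS_a_at, which is not a member, averaged 9.84 in the testis and was not detected in the ovary.

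Probe sets of one identifier did not always keep the same balance between the gonads, and the word in their name went with the direction. Many identifiers contain CDS or UTR. The sources used here do not state what the words mark, and they are taken as coding and untranslated parts of a transcript. The difference between testis and ovary was set side by side for 17 identifiers that had both kinds of probe set, at least 1 of them a member. In all 17 the UTR probe set was shifted towards the ovary relative to the CDS probe set, but 5 of the 17 have a probe set that was not detected in one gonad or both. Over the 12 with both kinds detected in both gonads, the testis minus ovary difference changed by a median of -1.525 log2 units (range -5.94 to -0.30), and in 10 of them the per-array UTR minus CDS values of the 4 testis arrays all lay below those of the 4 ovary arrays. The arrays were apart in that way for 66.9% of the 148 identifiers on the array with both kinds detected in both gonads, and by their means 86.5% of those 148 were shifted the same way with a median of -1.41, so the direction is that of the array and not particular to the members. The shift was used in part by the rule, which bounded the balance of each member, and it is given with no test. In Ag.2L.241.0, Ag.2L.420.0 and Ag.2R.669.0 both probe sets were members, so both balances were bounded.

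In 6 of the 12 the balance turned over, with the CDS probe set higher in the testis and the UTR probe set higher in the ovary, and in none the other way. This is close to the 54.7% of the 148 identifiers that did so. The largest shifts were in Ag.3R.1154.0, Ag.3R.646.0, Ag.3R.350.0 and Ag.3L.485.0. In Ag.3R.646.0 (CDS probe set joined to AGAP009940) the UTR minus CDS value was -4.59, -4.20, -4.06 and -4.11 on the testis arrays, against 1.81, 1.496, 0.90 and 1.44 on the ovary arrays. In Ag.3R.1154.0 it was -4.54, -4.56, -4.53 and -4.28 in the testis, against 1.52, 1.40, 1.06 and 1.88 in the ovary. In neither did the arrays of the gonads overlap. A value of this kind compares how a pair of probe sets changes between tissues and does not say that one level is above the other.

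**Figure D3:**
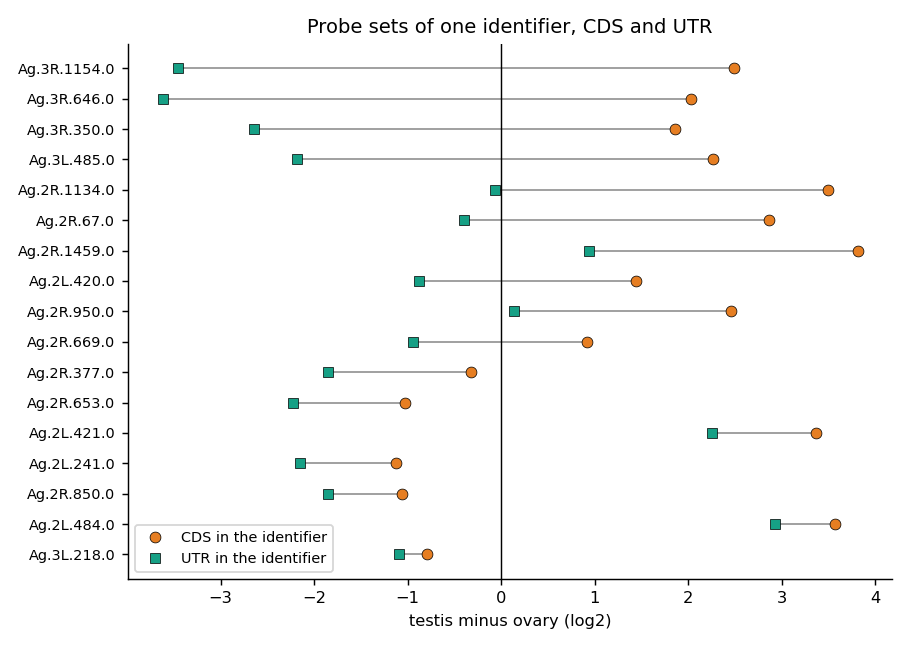
Each row is 1 of the 17 identifiers with a CDS (circle) and a UTR (square) probe set, at least 1 of them a member, and the x axis gives the difference of the testis and ovary means (testis minus ovary, log2; probe sets of a kind averaged). Every square lies to the left of its circle, by 0.30 to 5.94, and in 8 rows the line crosses 0, of which 6 are among the 12 identifiers with both kinds detected in both gonads.

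The whole-body arrays were not used by the rule, and the UTR minus CDS value could be tested there for the 4 identifiers with a member and both kinds detected in females and males (limma, Benjamini-Hochberg over 147 identifiers). In Ag.3R.646.0 the UTR minus CDS value was 3.12, 2.96, 2.21 and 3.04 in the female whole body, against -1.01, -0.47, -1.05 and -1.34 in the male whole body, a difference of 3.80 ± 0.28 (SE, adjusted p = 1.14e-06). Ag.2L.241.0, whose UTR probe set is of the cross-reacting kind _s_at, differed by 1.14 ± 0.23 (adjusted p = 0.00264). Ag.3R.350.0 (0.36) and Ag.3L.218.0 (-0.15) were not called. Of the 147 identifiers on the array, 4.76% were called in this direction and 14.3% in the opposite one, with the UTR probe set lower in females relative to the CDS probe set.

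The whole body of each sex contains that sex's gonad, so members of a set bright in both gonads could be seen in both. All 130 members had a higher mean in the female whole body than in the male whole body. The median of the member means was 7.83 in females and 4.63 in males, and the median difference was 3.15 log2 units. Since 62 members were below the detection limit on every male array, the fold is a lower bound for these, and with the limit in place of their male values the median was 2.51, or 5.68-fold. In 125 members the 4 female arrays all lay above the 4 male arrays, which held for 17.8% of all mosquito probe sets and 38.6% of those detected in either whole body. Detection gave the same order, with 126 members (96.9%) detected in females and 49 (37.7%) in males, and no member in males alone. Of all mosquito probe sets, 29.8% were detected in the female and 28.3% in the male whole body.

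In the limma fit over all 16884 probe sets, 121 of the 130 members were higher in females by at least 2-fold (adjusted p under 0.05) and 0 higher in males, where 12% and 10.9% of all probe sets were called. A fit limited to the 5821 probe sets detected in either sex tested 126 members and called 122 higher in females and 0 in males (all 126 differences were positive), against 30.6% and 28.5% of the probe sets tested. A member that entered this fit through the female arrays alone had been picked for higher female values, which favours a call. The 49 detected in both sexes are therefore the fairer count: 48 were called female-higher, against 22.9% of the 3985 probe sets detected in both. Over these 49 the median difference was 2.85. In the same fit 43 of 193 testis-alone probe sets tested were female-higher and 87 male-higher, and 192 of 218 ovary-alone probe sets were female-higher and 0 male-higher. In the no-limit fit 55 members brighter in the testis than in the ovary gave 48 female-higher calls, and 75 brighter in the ovary gave 73. Of the 27 members at least 1 unit higher in the testis, 21 were called female-higher.

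**Figure D4:**
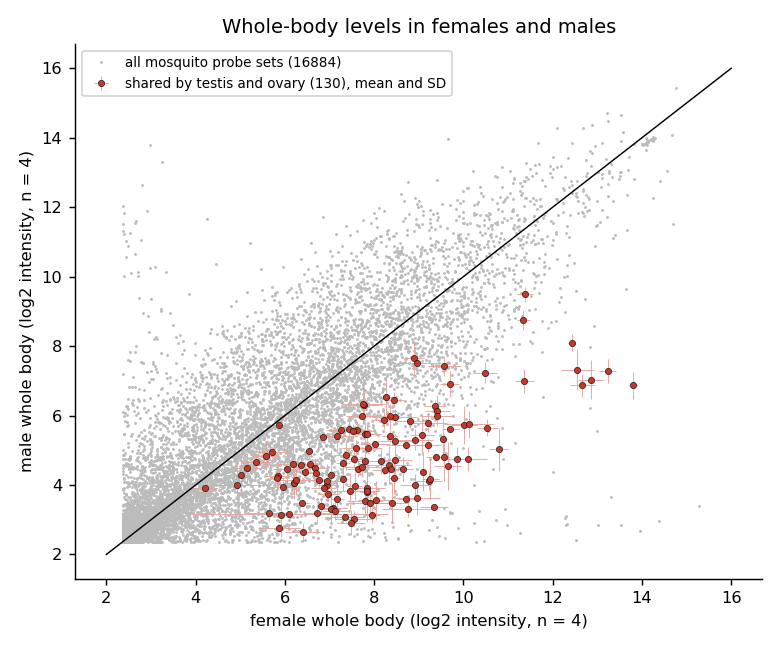
Each red point is 1 of the 130 probe sets, with its mean in the female whole body on the x axis and in the male whole body on the y axis (log2 intensity, 4 arrays each, bars 1 SD), over all 16884 mosquito probe sets in grey. All 130 lie below the line of equal levels, by 0.14 to 6.93.

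The largest whole-body difference was in 1 of the 2 bright identifier numbers on arm 2L. Ag.2L.241.0_UTR_s_at read 13.66, 13.82, 13.91 and 13.81 in the female whole body, against 6.89, 7.42, 6.63 and 6.55 in the male whole body, a difference of 6.93 ± 0.21 (SE), or 122-fold (limma, adjusted p = 3.71e-10). It is of the cross-reacting kind _s_at. Ag.2L.180.1_a_at read 12.98, 13.30, 13.22 and 13.44 in females, against 7.29, 7.77, 7.02 and 7.06 in males, a difference of 5.95 ± 0.21 (adjusted p = 1.17e-09). All female arrays of both lay above all male arrays. Ag.2L.180.0_CDS_a_at, Ag.2L.241.0_CDS_at and Ag.2R.669.0_UTR_at differed by 5.82, 5.79 and 5.76. Outside the 8 largest were the other members with these numbers, Ag.2L.180.0_CDS_s_at, which differed by 5.23, and Ag.2L.241.1_CDS_a_at. The latter was below the limit on every male array and at least 15.6-fold higher in females. The other 3 of the 8 most female-higher members were dim in males. Ag.2R.377.0_UTR_at was at least 20.2-fold higher in females (9.34 ± 0.31, against 3.35 ± 0.09 in males), and its measured difference of 5.98 was above that of Ag.2L.180.1_a_at. Ag.3L.1447.0_CDS_at was at least 13.4-fold higher (8.75 ± 0.57, against 3.31 ± 0.23), and Ag.3R.512.0_CDS_at, detected on 1 male array, differed by 5.35.

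The genes at the other end were few. Of the 4 members tested and not called, Ag.2L.42.0_CDS_at read 5.80, 6.03, 5.70 and 5.97 in the female whole body, against 5.49, 5.98, 5.53 and 5.93 in the male whole body (difference 0.14 ± 0.19 SE, limma adjusted p = 0.491), so that the sexes overlapped. It was also as bright in the testis (9.45 ± 0.16) as in the ovary (9.11 ± 1.19) within the spread of the arrays. Ag.2R.1062.1_CDS_a_at, Ag.3L.910.0_CDS_at and Ag.3R.911.0_CDS_at differed by 0.68, 0.75 and 0.74, under the 2-fold limit, with adjusted p of 0.0110, 0.00665 and 0.0122, the first of them below the detection limit on every male array. The 4 members not tested, Ag.2L.1039.0_CDS_at, Ag.3L.485.0_CDS_a_at, Ag.3R.1154.0_CDS_at and Ag.3R.2805.0_at, had means of 4.22 to 5.15 in females and 3.93 to 4.48 in males. These 8 were named because they were the exceptions, after their values were seen.

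Across the 130 members the whole-body difference fell as the balance moved towards the testis (Pearson r -0.53, Spearman rho -0.522, given as a description, since members share arrays). Female whole-body levels followed testis levels with r 0.567 and ovary levels with r 0.815. Male whole-body levels followed testis levels with r 0.73 and the brightest of the 6 other tissues with r 0.844. Ag.3R.646.0_CDS_a_at, the member of AGAP009940 and the brightest in the testis, read 8.32, 8.88, 9.36 and 9.27 in the female whole body, against 7.45, 7.82, 7.48 and 7.27 in the male whole body. No female array was below a male array, and the difference was 1.45 ± 0.24 (SE, limma adjusted p = 0.000211). The ovary-tilted UTR probe set of the same identifier, which is not a member, averaged 11.79 in females and 6.54 in males. For Ag.2L.484.0_UTR_s_at, the member most tilted to the testis, it was 1.25 ± 0.24 (adjusted p = 0.000541).

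Of the members joined to a gene, 13 in number, all 13 were called female-higher in the whole body. This is near the share of all members tested (122 of 126) and sets these genes apart from no others among them, against 30.6% of all probe sets tested. A probe set was joined when its tissue profile matched that of 1 gene in the study's lists of orthologues, and these genes are named for that reason alone. AGAP001135 (Ag.2R.1154.0_CDS_at) read 8.50, 8.69, 8.96 and 8.73 in females, against 3.54, 3.61, 3.47 and 3.72 in males, where it was below the detection limit, and was at least 13.2-fold higher in females. AGAP001104 (Ag.2R.2367.0_CDS_at) differed by 4.08 ± 0.17 (SE, limma adjusted p = 4.12e-09) and AGAP009459 by 3.44 ± 0.23 (adjusted p = 1.66e-07). Also below the limit on every male array were AGAP011361 (Ag.3L.971.0_CDS_at), at least 3.67-fold higher in females, AGAP008417 (Ag.3R.545.0_CDS_at), at least 3.26-fold, AGAP001656 (Ag.2R.1015.0_CDS_a_at), at least 2.32-fold, AGAP004781 (Ag.2L.2292.0_CDS_at), at least 1.79-fold, and AGAP004756 (Ag.2L.946.0_CDS_at), at least 1.76-fold. AGAP004656, AGAP006809 (Ag.2L.713.0_CDS_a_at) and AGAP005075 (Ag.2L.864.0_UTR_a_at) differed by 2.35, 2.03 and 1.83, and AGAP005031, above the limit on 1 male array, by 1.58. Of these 13 probe sets, 11 were higher in the testis and 2 in the ovary by their means. The 2 were those of AGAP001104 and AGAP001135, both by more than 1 unit. Among all members 55 were higher in the testis and 75 in the ovary, so the joined probe sets do not stand for the set in this respect. Whether the match to a gene favoured probe sets higher in the testis was not tested. The balance is that of the joined probe set and not of the gene: the UTR probe set of AGAP009940 averaged 8.90 in the testis and 12.52 in the ovary.

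In the tissues that are not gonads few members could be compared between the sexes, because the rule kept the higher sex of each tissue low. The rule used these arrays as a ceiling, though not the difference between the sexes, so the calls are given as a description. A member detected in 1 sex alone entered the fit through the arrays where it was high. For calls given below as a lower bound, the dimmer sex was under the detection limit on every array. Of 16 to 23 members that could be tested in each of 5 tissues, 0 were called in the head (limma; 3 at an unadjusted p under 0.05), where 7.06% of probe sets were female-higher and 3.54% male-higher. In the carcass 3 were female-higher (background 15.1%) and 0 male-higher (18%). In the midgut 0 were female-higher (14.3%) and 1 male-higher (16.3%), in the Malpighian tubules 1 (7.8%) and 1 (10.6%), and in the salivary gland 0 (16.2%) and 3 (13.1%). The median difference over all 130 members lay between -0.12 (Malpighian tubules) and 0.16 (carcass).

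The 9 calls in these tissues are all named here. The 3 female-higher in the carcass were the ovary-tilted Ag.2L.241.0_UTR_s_at, Ag.2L.180.1_a_at and Ag.2L.180.0_CDS_s_at. Ag.2L.241.0_UTR_s_at read 6.62, 7.66, 11.48 and 9.33 in the female carcass, against 4.95, 4.04, 3.94 and 4.04 in the male carcass, at least 13.7-fold higher in females (adjusted p = 0.00109). All female arrays were above all male arrays, and the highest was replicate 3, on which ovary-alone probe sets were raised too. Of the 101 ovary-alone probe sets tested in the carcass, 33 were female-higher and 1 male-higher. The members Ag.2L.180.1_a_at and Ag.2L.180.0_CDS_s_at, also below the limit on every male carcass array, were at least 4.38-fold and 2.78-fold higher. Without female carcass replicate 3 the measured differences were 3.63 in place of 4.53 for Ag.2L.241.0_UTR_s_at, 2.10 in place of 3.02 for Ag.2L.180.1_a_at and 1.92 in place of 2.92 for Ag.2L.180.0_CDS_s_at. The 3 male-higher in the salivary gland were the testis-tilted AGAP009940, Ag.2L.484.0_UTR_s_at and Ag.2L.421.0_UTR_a_at. AGAP009940 read 2.93, 2.97, 3.07 and 2.97 in the female salivary gland, against 6.64, 6.87, 4.98 and 5.93 in the male salivary gland, at least 2.15-fold higher in males (adjusted p = 0.000182). Ag.2L.484.0_UTR_s_at and Ag.2L.421.0_UTR_a_at, below the limit on every female array, were at least 3.27-fold and 1.77-fold higher in males. Testis-alone probe sets had medians of 2.81 to 3.12 on the male salivary gland arrays, against 2.62 to 2.64 on the female ones. Of the 76 testis-alone probe sets tested there, 47 were male-higher and 3 female-higher, and their part in the member calls was not tested. The counts of members are small and move with single replicates: without replicate 1 of either sex 6 members were called in the carcass and 5 in the salivary gland, without replicate 3 there were 8 in the salivary gland, and without replicate 3 or 4 there were 2 in the midgut. Ag.3L.2115.0_at was male-higher in the midgut by at least 2.32-fold, below the limit on every female array, Ag.UNKN.157.0_CDS_a_at male-higher in the Malpighian tubules (-1.48 ± 0.25 SE, female minus male) and Ag.2R.850.0_UTR_s_at female-higher there (2.22 ± 0.51).

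None of the 130 members carried an X in its identifier (in this mosquito males carry a single X chromosome and females a pair). A count of 0 of 130 allows a share of up to 2.31%, counting error only. There were 40 members on arm 2R, 37 on 2L, 29 on 3R, 17 on 3L and 7 with no arm given. Arm X held 8.31% of all mosquito probe sets, 3.71% of those detected in the testis, 5.73% of those detected in the ovary and 3.58% (66 of 1845) of those with both gonads at 7 or above. The testis-alone probe sets included 1 on X of 521 and the ovary-alone probe sets 9 of 253. These shares were not tested against each other.

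The arm was not part of the rule, and the X share was lower at both of its steps, the level limit (3.58% of those at 7 or above) and the comparison with the other tissues. Of the 66 X probe sets with both gonads at 7 or above, 7 (10.6%) had both gonads above all 6 other tissues, against 36.8% of the 1689 on arms 2 and 3. Their median gap was -2.22, against -0.61 on the autosomal arms. Among these 66 the largest gap was that of Ag.X.1625.0_at, which had levels of 9.50 in the testis and 11.21 in the ovary and lay 1.96 above the accessory gland, the highest other tissue at 7.54. Ag.X.179.0_UTR_at, named above, had a gap of 3.08 and missed the rule by its testis level alone. Looser limits brought in few: 1 of 175 probe sets with a level of at least 6 and 0 of 195 with a gap of at least 2. With replicate 1 of every group left out, or with replicate 2, 1 X probe set passed the rule.

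**Figure D5:**
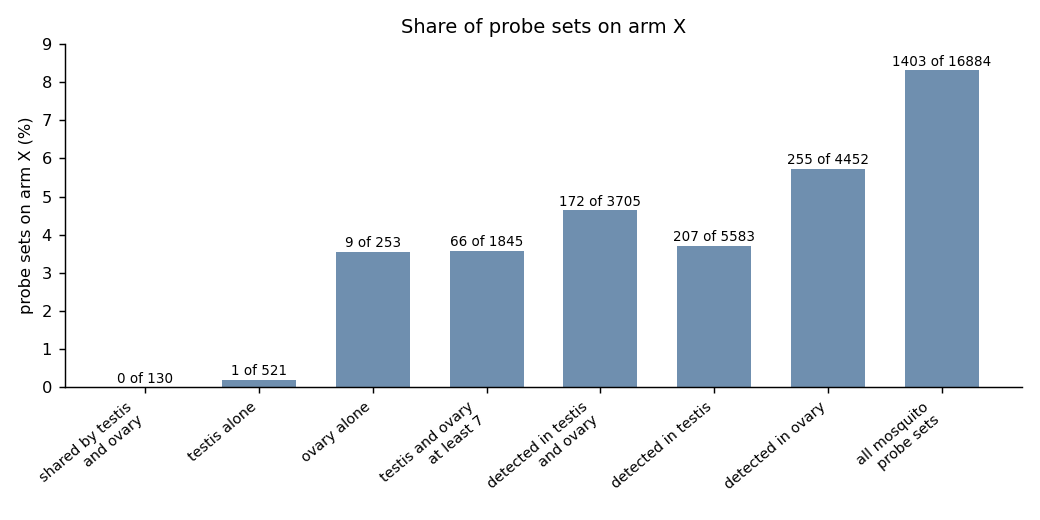
Bars give the share of probe sets on arm X (y axis, percent) among the 130 members, the probe sets of testis alone and ovary alone, and the wider sets named on the x axis, with counts above the bars. The share is 0 of 130 in the members and 1 of 521 in testis alone, against 1403 of 16884 over the array.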

How the data were processed

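Gene expression was measured on 60 single-colour Affymetrix arrays, 4 biological replicates in each of 15 groups of adult Anopheles gambiae tissue. The deposited values are linear intensities that the authors obtained with GCRMA (version not given in the sources used here), standardizing both sexes of a tissue together, with probes mapped to AgamP3. The lowest intensity differs between tissues, so levels of different tissues are not on one scale, and the rule and every testis to ovary difference depend on that scaling. The arrays carry no count depth, and their number limits the precision.

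Intensities were taken to log2 with no further normalization (Python 3.11.15). A probe set was detected at log2 5 or more in at least 3 of 4 arrays. Females and males were compared within a tissue with limma 3.58.1 (R 4.3.3, lmFit and eBayes, 8 arrays, sex only) over mosquito probe sets detected in either sex, with Benjamini-Hochberg adjustment, and called at a 2-fold change and an adjusted p under 0.05. Every adjusted p printed for a single probe set is from such a fit. The UTR minus CDS values were fitted in the same way over the 147 identifiers with both kinds detected in both whole bodies. The no-limit fit used all 16884 mosquito probe sets. Differences are testis minus ovary and female minus male on the log2 scale. Where a group lay below log2 5 on every array, the fold is a lower bound, the mean of the brighter group over that limit. The fits were checked on simulated data.

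The members, lists and tests were chosen with earlier results of these data known. Probe sets are named as the 15 brightest in both gonads, the 8 most female-higher called in the whole body, the 5 nearest each side of the limits, the 5 at each end of the testis to ovary balance and the 5 with the largest SD in each gonad. Members joined to a gene, those not called or not tested in the whole body, those called in other tissues, and the CDS and UTR pairs are also named; these were chosen after their values were seen. Gene names come from a match of relative tissue abundance (within 0.0006 in at least 3 tissues) to 1352 mosquito genes in the study's orthologue lists, of which 1174 matched exactly 1 probe set and 13 a member. The reference table pairs none of the probe sets with a product, so planned gene lists, cell type markers and promoter motifs were not used here, and no sequence is printed.

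Alternatives were quantile normalization of all 60 arrays, other detection, level, gap and fold limits, no detection limit, a replicate block, trend and robust variances, 1 fit of all 60 arrays, probe sets without the cross-reacting kinds _s_at and _x_at, and each replicate left out.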

Additional observations from a re-analysis of the deposited data

Results flagged for a closer look

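A replicate far from the other 3 of its group, by the gap to its neighbour over the range of the group, was found in 19 of 239 groups of values checked, where chance gives about 1 in 20. Over all members, the median was lowest on female whole body replicate 1 (7.61, others 7.96 or higher) and highest on male Malpighian tubules replicate 1 (4.02). The other 17 were single probe sets. In the male whole body, replicate 2 was highest for Ag.2L.1039.0_CDS_at (4.68), Ag.2L.1558.0_CDS_a_at (5.34), Ag.2L.180.0_CDS_a_at (7.87) and Ag.3R.2622.0_at (5.57), and lowest for Ag.2L.1993.0_CDS_at (3.74). Replicate 4 was lowest there for Ag.2L.322.0_CDS_at (6.99) and Ag.3L.1447.0_CDS_at (2.97), and replicate 3 for Ag.2R.1015.0_CDS_a_at (3.69). In the testis, replicate 1 was lowest for Ag.2L.180.0_CDS_a_at (11.92) and Ag.2L.3183.0_at (11.07), and replicate 4 for Ag.3R.646.0_CDS_a_at (12.95). In the ovary, replicate 4 was highest for Ag.2L.1774.0_CDS_at (8.05) and Ag.2L.713.0_CDS_a_at (8.29) and lowest for Ag.UNKN.157.0_CDS_a_at (12.47). In the female whole body, the outlying value was 13.28 for Ag.2L.180.0_CDS_a_at (replicate 4), 6.68 for Ag.2R.2551.0_CDS_at (replicate 3) and 9.74 for Ag.3R.851.0_CDS_a_at (replicate 2), each the highest.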

How the results depend on the processing

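The rule found 60 probe sets after quantile normalization of all 60 arrays and 70 with a level of at least 8, against 130. Other limits gave 98 to 195, and each replicate left out in turn 119 to 143. The median testis minus ovary difference was -0.57 after quantile normalization, against -0.18, so the scale of each tissue limits every comparison of gonads. The whole-body count of female-higher members was 122, and 102 to 123 under every alternative run (102 with a log2 limit of 2 in place of 1, 114 without _s_at and _x_at probe sets, 120 after quantile normalization), with 0 male-higher in each and a median difference of 3.15 to 3.43. Of 662 refits of 52 named probe sets in the whole body, 650 kept direction and call, and 11 fell below the threshold, 10 of them because the fold limit was raised. Ag.2L.42.0_CDS_at changed sign, to -0.0524 after quantile normalization. The UTR shift towards the ovary held for 16 of 17 identifiers after quantile normalization.

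Counts of sex calls in other tissues were unstable. In the carcass 1 member was called without a detection limit and 2 to 6 with a replicate left out. In the midgut 2 were called at a limit of log2 4, 2 with the replicate block and 1 to 2 with a replicate left out. In the Malpighian tubules 1 was called without a limit. In the salivary gland 5 were called after quantile normalization, 6 at a limit of log2 4 and 3 to 8 with a replicate left out. The cause was not tested in any of these. Female and male whole-body arrays with the same number deviated from their group means with correlations of -0.009, 0.186, 0.348 and 0.026. The pair numbered 3 was the highest of all pairs, whereas female replicate 4 correlated best with male replicate 1 (0.09). Whether replicates with the same number share material cannot be told from these values. The replicate block left the whole-body count at 122 and moved none but the midgut count. The settings without ovary replicate 4 (116 probe sets found) and without the 3 high arrays of other tissues (132), and those on the X arm, on array overlap and on CDS and UTR pairs, were chosen after seeing the data.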
